A study of Danio rerio with 6 samples.

Results

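The zebrafish Affymetrix array measured 31 hox genes outside the anterior part of the hoxb clusters in eyes of embryos treated with retinoic acid (RA). They were every gene of the hoxa, hoxc and hoxd clusters, and every hoxb gene of paralog group 9 or above, to which the probe annotation gave a probe set with that symbol alone. They made up 31 of the 8793 genes with a single symbol and were carried by 43 of the 15555 probe sets tested. The set held 11 hoxa genes, 12 hoxc genes, 6 hoxd genes and 2 hoxb genes (hoxb9a and hoxb10a), of which 14 belonged to paralog groups 1 to 8 and 17 to groups 9 to 13. RNA came from pools of 64 dissected eyes at 75 hours post-fertilization (hpf), and there were 3 pools, each on its own array, in each of 2 groups. The RA embryos were exposed to 0.3 µM all-trans RA in DMSO from 48 to 75 hpf, and the control/dmso embryos received 0.1% DMSO alone over the same period. Both groups were wild-type embryos of the outbred SciH strain, and the embryos of every clutch were divided over RA and DMSO. The sample titles number the pools of both groups 1, 3 and 4 and do not name a clutch. Pools with the same number were taken here as the same clutch. Each pool held whole eyes, so every signal is an average over lens, retina, pigmented epithelium and attached tissue, and a change in the number of cells that express a gene cannot be told apart from a change in RNA per cell.

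Hox genes encode homeodomain transcription factors that give cells along the head-to-tail axis their positional identity. They lie in clusters, and genes at corresponding places in different clusters form paralog groups, numbered from the end of the cluster that is active earliest and most anteriorly. RA is a classical activator of hox genes of the low-numbered groups in the hindbrain and anterior spinal cord, where nuclear RA receptors bind response elements near several of them. Genes of the high-numbered groups act in the posterior trunk, tail, fins and limbs. The eye arises from the forebrain, ahead of the usual anterior limit of hox expression. Zebrafish carry duplicated clusters, marked by a final a or b in the gene name.

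The signal intensities were on a linear scale, with array medians of 39.5 to 43.5. Background was taken as 13.2, the highest signal of 87 negative control probe sets on any array, and 67.2 to 70.0% of probe sets exceeded it on each array. All 9 measured members of an eye marker list were above background on every array. The 3'/5' ratio of the acta1 control probe sets, a sign of RNA integrity, was 12.0 to 64.5 under DMSO and 5.30 to 11.7 under RA, without overlap. The same ratio of gapdh overlapped between the groups, at 1.48 to 2.58 under DMSO and 1.32 to 1.75 under RA. The part of RNA integrity in the results below was not tested. Differences were tested with limma on log2 signals, with adjustment over all 15555 probe sets and a threshold of 10% false discovery rate (FDR). A fold against a group at background is a lower bound, the geometric mean of the bright group over 13.2, and is given only where the bright group exceeded it. Where both groups were under background no such fold is given. A log2 fold change or a call there rests on the order and spacing of signals in the range of the negative controls. Neither sizes a change.

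No hox gene of the set exceeded background in any DMSO pool, where the highest signal was 6.83. Under RA, hoxc1a, hoxc5a and hoxd4a exceeded it in all 3 pools, hoxa3a in 2 and hoxb9a in 1. The 3 genes above background in every RA pool were 9.68% of the set, whereas 1.27% of all 4266 probe sets at background in every DMSO pool reached this. Here and below, shares of the set count genes, each by its brightest probe set. The shares beside them count every probe set singly, so the units differ. The other 26 genes were at background on all 6 arrays. The summed signal of the 31 genes was 45.0 to 76.3 under DMSO and 142 to 173 under RA, without overlap. Their median signal overlapped, at 0.909 to 2.07 under DMSO and 1.72 to 2.72 under RA, so the sum does not show a rise across the set.

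**Figure D1:**
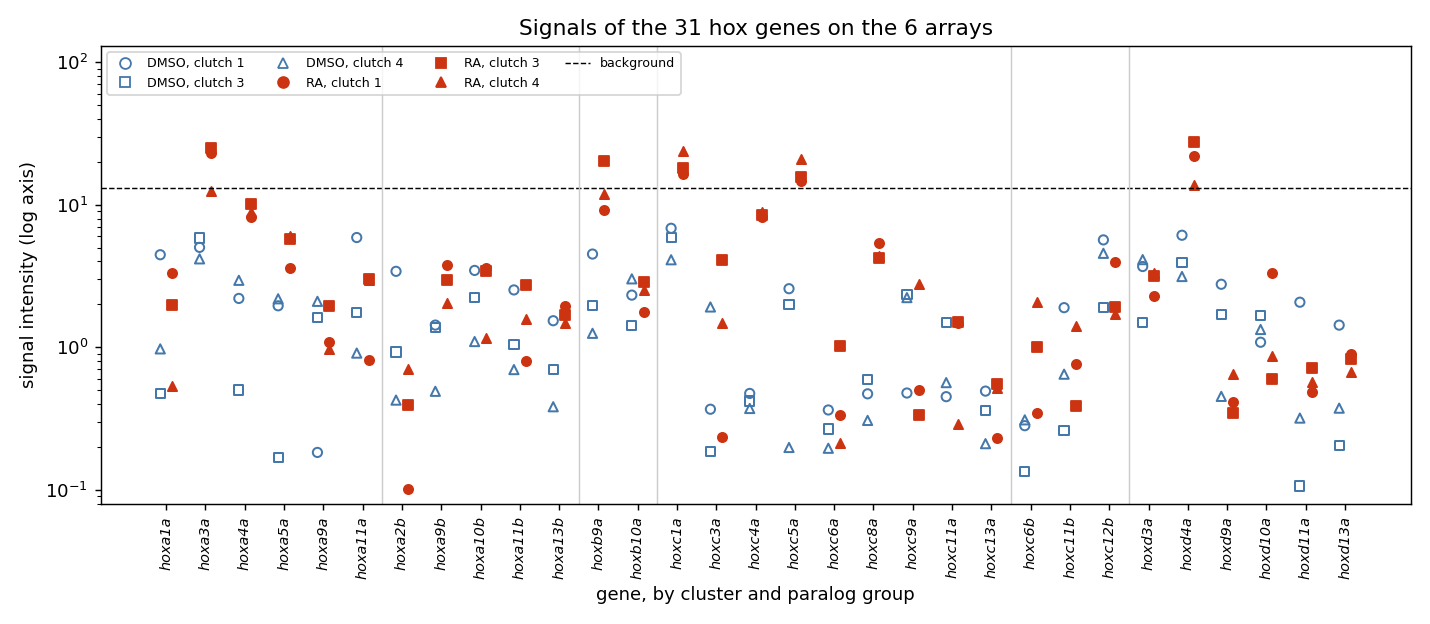
Signal intensity (log axis) of each of the 31 hox genes on the 6 arrays, by cluster and paralog group (a and b clusters separated by grey lines). Open blue symbols are DMSO pools, filled red symbols are RA pools, the symbol shape gives the clutch and the dashed line is the background of 13.2. All DMSO points lie under the line, and the points above it are RA pools of hoxa3a, hoxb9a, hoxc1a, hoxc5a and hoxd4a.

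By the test, 5 of the 31 genes passed with higher signals under RA (16.1%), namely hoxa3a, hoxc1a, hoxc4a, hoxc8a and hoxd4a, and 0 passed with lower signals. All values of hoxc4a and hoxc8a were under background. The probe set that represents hoxc8a was chosen through its RA arrays, as described below. Since each clutch supplied both groups, the fit was repeated blocked on clutch, and 2 genes then passed, hoxc4a and hoxc8a. Over all probe sets 0.604% rose and 0.238% fell, and among those at background in every DMSO pool 1.05% rose. At an unadjusted p under 0.05, 11 genes were higher and 0 were lower, while 8.76% of all probe sets and 10.85% of those at background under DMSO had such a p in either direction. In 11 genes (35.5%) every RA pool was above every DMSO pool, against 6.98% of all probe sets and 7.31% of those at background under DMSO. No gene had every RA pool under every DMSO pool. The share of all probe sets in that order was not counted. The median log2 fold change was 0.58, compared with 0.02 over the probe sets at background under DMSO. Most of the 31 genes were under background in both groups, so this median does not size a change.

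The 5 genes that passed all belonged to paralog groups 1 to 8, where they were 5 of 14 (35.7%), or 2 of 14 when blocked on clutch. In groups 9 to 13, 0 of 17 passed by limma, and 2 (hoxb9a and hoxa9b, 11.8%) had an unadjusted p under 0.05, close to the 10.85% of all probe sets at background under DMSO. The study, by another test (SAM), lists hoxb9a as upregulated. Whether the difference between the groups of paralogs exceeds chance was not tested. The median log2 fold change was 1.97 in groups 1 to 8 and 0.26 in groups 9 to 13. Only 4 of the 14 and 1 of the 17 genes exceeded background in any pool, so these medians do not size a change. Every RA pool was above every DMSO pool for 9 of 14 genes (64.3%) and for 2 of 17 (11.8%), against 7.31% of probe sets at background under DMSO. All 3 genes of group 4 and both genes of group 5 showed this separation. None of the genes of groups 10 to 13 did by the probe set that represents it. The other probe set of hoxa10b was separated, at 0.967, 0.235 and 0.499 under DMSO and 1.67, 1.27 and 1.96 under RA. All these values were under background, and it did not pass (adjusted p = 0.375). By cluster, 3 of 9 hoxca genes, 1 of 6 hoxaa genes and 1 of 6 hoxda genes passed, and 0 of 5 in hoxab, 0 of 3 in hoxcb and 0 of 2 in hoxba. Over all probe sets 0.604% rose.

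**Figure D2:**
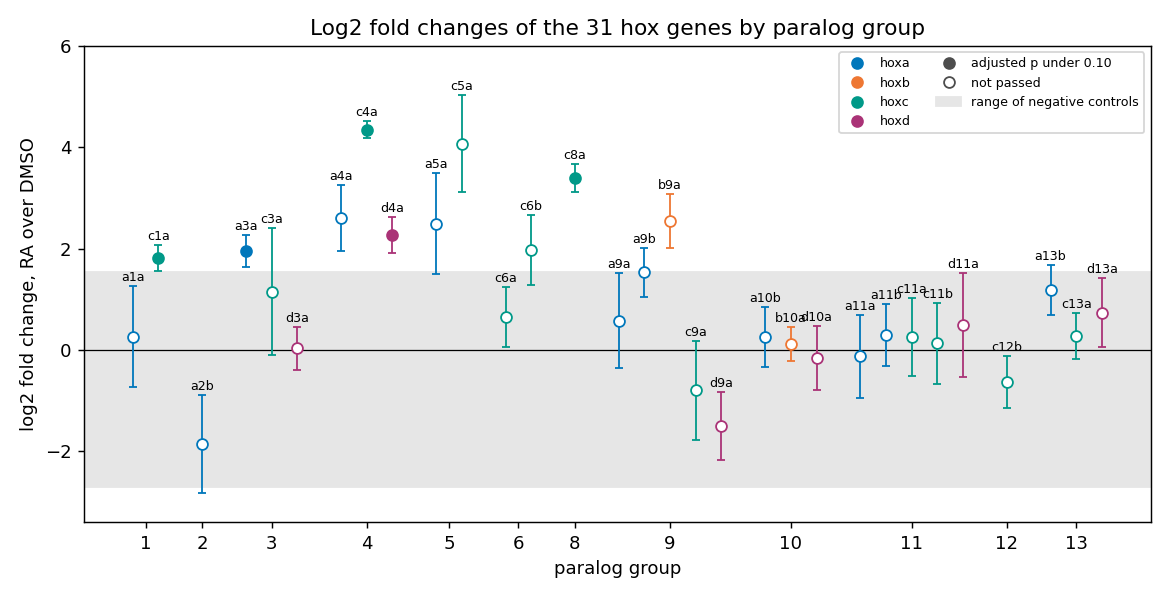
Log2 fold change of RA over DMSO with its limma standard error (n = 3 pools per group) for the 31 hox genes by paralog group, coloured by cluster. Filled points passed 10% FDR, open points did not, and the grey band spans the log2 fold changes of 43 negative controls, −2.71 to 1.53. The log2 values of genes under background in both groups, hoxc4a and hoxc8a among them, do not size a change. The 5 filled points lie in groups 1, 3, 4 and 8, and among groups 9 to 13 hoxb9a alone has its point above the band.

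The hoxca cluster held 9 measured genes. Its anterior end is marked by hoxc1a, a group 1 gene that mammals lack. Its signals were 6.83, 5.90 and 4.11 under DMSO and 16.4, 18.1 and 24.0 under RA, in the order of clutches 1, 3 and 4 that is kept throughout. All RA pools were above background and all DMSO pools below it, and the rise was at least 1.46-fold. The log2 fold change was 1.81 ± 0.26 (SE, n = 3 per group, adjusted p = 0.060). A fit blocked on clutch did not call it (adjusted p = 0.243), and the call was also lost on leaving out any single array except the DMSO pool of clutch 1 (0.132 to 0.239, and 0.0913 without that pool).

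hoxc4a belongs to group 4, whose members act in the caudal hindbrain and anterior spinal cord. Its signals were 0.474, 0.420 and 0.372 under DMSO and 8.20, 8.52 and 8.94 under RA. The groups did not overlap. All 6 values were under background, and no fold is given. Within each array, 59 to 66 of the 87 negative controls were brighter than hoxc4a under DMSO and 1 to 3 under RA. It passed by limma (adjusted p = 6.3e-04). It also passed when the fit was blocked on clutch (adjusted p = 0.0315) and without any single array (0.00383 to 0.0108).

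hoxc5a, a group 5 gene, had signals of 2.57, 1.98 and 0.198 under DMSO and 14.6, 15.8 and 20.9 under RA. The RA pools were all above background and the groups did not overlap. The bound was at least 1.28-fold, but the DMSO pools spread widely, and the log2 fold change of 4.07 ± 0.96 did not pass (adjusted p = 0.231). Without the DMSO pool of clutch 4, the lowest of the 6 arrays, the adjusted p was 0.0321. It did not pass without any other single array (0.221 to 0.539) or blocked on clutch (0.366).

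hoxc8a has a role in the identity of brachial and thoracic spinal motor neurons, as known from the mouse. Its signals were 0.471, 0.593 and 0.306 under DMSO and 5.35, 4.22 and 4.39 under RA. The groups did not overlap, but all values were under background, with 51 to 70 of the 87 controls brighter under DMSO and 3 to 6 under RA. It passed by limma (adjusted p = 0.00824, and 0.0848 blocked on clutch), again with no fold. Its other 2 probe sets did not pass (adjusted p = 0.709 and 0.946), and the gene is counted as higher because its brightest probe set on the linear scale represents it. By the mean log2 signal another probe set would represent it, and 4 genes of the set would then pass. The RA arrays decided which probe set was brightest. Under DMSO alone another had a mean of 1.37, against 0.457 for the representing probe set, and its groups overlapped. The call of hoxc8a is therefore not independent of that choice.

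The remaining hoxca genes lie among and behind these. hoxc3a, which mammals also lack, had 0.367, 0.185 and 1.92 under DMSO and 0.236, 4.09 and 1.48 under RA, with overlap. hoxc6a, hoxc9a, hoxc11a and hoxc13a were at background on all arrays, with overlapping groups and no call. From the anterior end of the cluster, hoxc1a, hoxc4a and hoxc5a had separated groups, hoxc6a did not, hoxc8a did, and the groups of hoxc9a, hoxc11a and hoxc13a overlapped. In the annotation hoxc3a lies over hoxc4a, hoxc5a, hoxc6a, hoxc8a and hoxc9a (RefSeq, GRCz12tu), so which transcript of this stretch a probe set reports is uncertain.

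In the hoxda cluster, hoxd4a rose. In the mouse its counterpart Hoxd4 has a hindbrain enhancer that responds to RA. Its signals were 6.11, 3.95 and 3.13 under DMSO and 21.9, 27.6 and 13.8 under RA. All RA pools were above background and all DMSO pools under it, and the rise was at least 1.54-fold. The log2 fold change was 2.26 ± 0.36 (SE, adjusted p = 0.0816), and it did not pass blocked on clutch (adjusted p = 0.159) or without any single array other than the DMSO pool of clutch 1 (0.131 to 0.264, and 0.0935 without that pool). A second probe set of the gene gave 2.78, 1.15 and 3.11 under DMSO and 6.58, 8.11 and 9.85 under RA. Its groups did not overlap either, all values were under background, and it did not pass (adjusted p = 0.187). hoxd3a, which lies over hoxd4a in the annotation, had 3.68, 1.49 and 4.12 under DMSO and 2.28, 3.18 and 3.34 under RA, with overlap. The posterior hoxd genes hoxd9a, hoxd10a, hoxd11a and hoxd13a, the last of which patterns digits in the mouse, had overlapping groups and no call.

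In the hoxaa cluster, hoxa3a rose. Its mouse counterpart is needed for the thymus and parathyroid. The brighter of its 2 probe sets had 5.02, 5.84 and 4.17 under DMSO and 23.1, 25.1 and 12.4 under RA. The RA pools of clutches 1 and 3 were above background and that of clutch 4 just under it, and the groups did not overlap. The rise was at least 1.46-fold, with a log2 fold change of 1.96 ± 0.31 (SE, adjusted p = 0.0827). It did not pass blocked on clutch (adjusted p = 0.135) or without any single array other than the RA pool of clutch 4 (0.189 to 0.285, and 0.0604 without that pool). The other probe set gave 4.93, 3.11 and 4.62 under DMSO and 9.25, 11.8 and 8.69 under RA, separated but under background, and did not pass (adjusted p = 0.146). The gene is uncertain, since the study's own list assigns the brighter probe set to hoxa4a, and hoxa3a lies over hoxa4a and hoxa5a in the annotation.

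hoxa4a, the next gene of that cluster, had 2.20, 0.501 and 2.95 under DMSO and 8.14, 10.2 and 8.88 under RA. The groups were separated and under background, and the gene did not pass (adjusted p = 0.269, and 0.0962 without the DMSO pool of clutch 3). It also did not pass without any other single array (0.235 to 0.615) or blocked on clutch (0.371). hoxa5a, a group 5 gene, had 1.95, 0.168 and 2.19 under DMSO and 3.61, 5.76 and 6.06 under RA, again separated and under background (adjusted p = 0.556). hoxa1a, whose mouse counterpart shapes the segments of the hindbrain, had overlapping groups. hoxa2b, which gives the pharyngeal arch behind the jaw its identity, had 3.41, 0.927 and 0.426 under DMSO and 0.102, 0.392 and 0.704 under RA, with overlap and no call (adjusted p = 0.696). It was the only gene of groups 1 to 8 with a negative log2 fold change.

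Of the genes of groups 9 to 13, hoxb9a alone exceeded background. Group 9 genes act in the trunk. Its brighter probe set had 4.51, 1.96 and 1.25 under DMSO and 9.19, 20.2 and 11.9 under RA. The groups did not overlap, and the RA pool of clutch 3 was the array above background. The log2 fold change of 2.55 ± 0.53 (SE) did not pass (adjusted p = 0.171, and 0.0913 without the DMSO pool of clutch 1). The geometric mean under RA did not exceed background, so no bound is given and this log2 value does not size a change. This probe set also did not pass without any other single array (0.295 to 0.459) or blocked on clutch (0.335). hoxb9a has another probe set. That one differed in direction, with 1.95, 1.23 and 1.89 under DMSO and 1.41, 1.80 and 0.201 under RA (adjusted p = 0.83). By representing probe sets, hoxa9b was the other gene of these groups with separated values. It had 1.43, 1.37 and 0.491 under DMSO and 3.79, 2.98 and 2.04 under RA, all under background (adjusted p = 0.409). Of the 17 genes, 12 had a positive and 5 a negative log2 fold change.

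**Figure D3:**
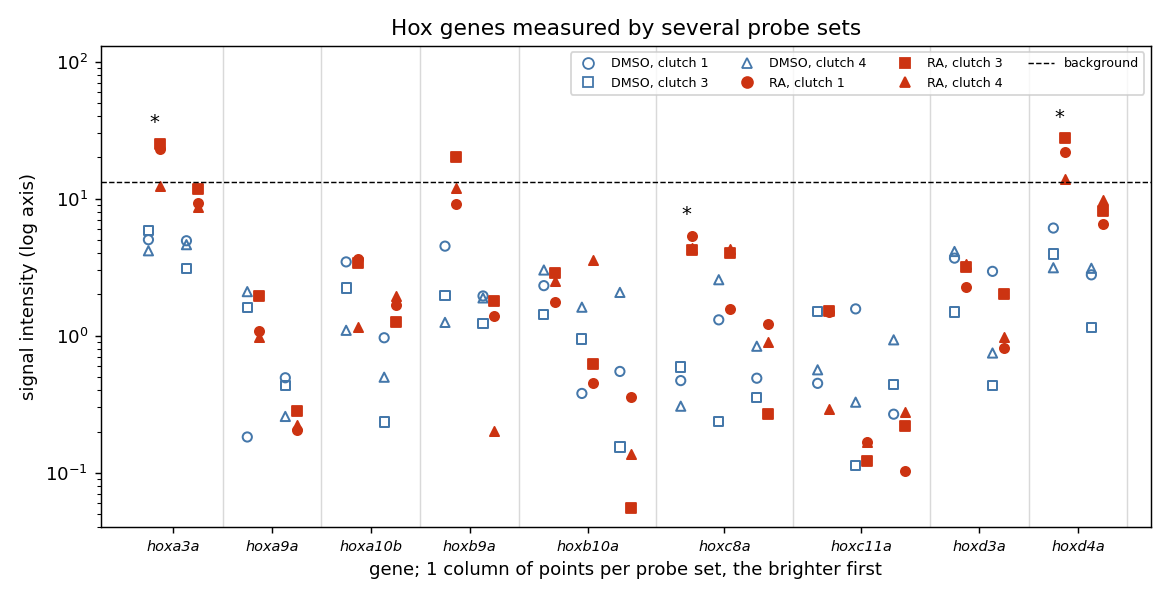
Signal intensity (log axis) of the 9 hox genes measured by several probe sets, with a pair of point columns (DMSO left, RA right) for each probe set, the brighter first. The dashed line is the background of 13.2 and a star marks a probe set past 10% FDR. Each star is over the brightest probe set of hoxa3a, hoxc8a or hoxd4a, and none of the 12 other probe sets passed.

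Precision was limited by the low signals. The median standard error of the log2 fold change was 0.64 for the 31 genes and 0.21 for the 9791 probe sets that exceeded background on each array. When signals under 13.2 were set to 13.2, none of the 31 genes passed. Genes under background on all arrays, hoxc4a and hoxc8a among them, could not pass there, because all their values became equal. Leaving out a whole clutch, which removes 1 array from each group, left hoxc4a as the only gene past the threshold in each of the 3 cases (adjusted p = 0.0321, 0.0682 and 0.0691 without clutches 1, 3 and 4).

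**Figure D4:**
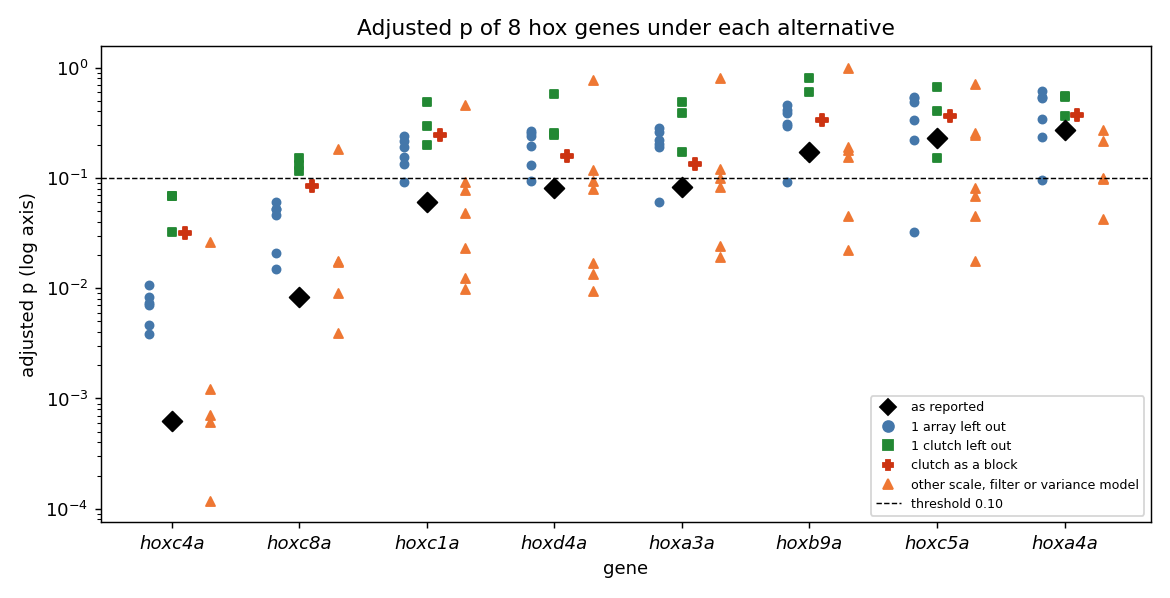
Adjusted p (log axis) of 8 hox genes as reported (black diamonds), without 1 array (blue circles), without 1 clutch (green squares), with the clutch as a block (red crosses) and under other scales, filters or variance models (orange triangles). The dashed line is the 10% FDR threshold. All plotted points of hoxc4a lie under the line. hoxa3a, hoxa4a, hoxb9a, hoxc1a, hoxc5a, hoxc8a and hoxd4a have points on both sides. hoxa4a, hoxc4a and hoxc8a have no point for the floor at background, where all their signals became equal.

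The hoxb genes of the same paralog groups were read beside these. hoxb8a, of group 8 like hoxc8a, had 5.72, 3.64 and 4.97 under DMSO and 139, 251 and 356 under RA (adjusted p = 0.0034). hoxb3a and hoxb8b also rose, from background in every DMSO pool. hoxb3a had 0.380, 2.20 and 1.49 under DMSO and 16.2, 32.8 and 24.3 under RA (adjusted p = 0.0724). hoxb8b had 0.687, 2.81 and 1.58 under DMSO and 24.7, 31.3 and 46.4 under RA (adjusted p = 0.0320), but did not pass blocked on clutch (adjusted p = 0.101). hoxb1a and hoxb4a, of the groups of hoxc1a and hoxc4a, were at background on all arrays and did not pass. hoxb1b, the other hoxb gene of group 1, is unnamed in the probe annotation, but the study's list gives a probe set that name. That probe set had 2.79, 2.56 and 2.65 under DMSO and 88.0, 137 and 128 under RA, above background on every RA array, and rose at least 8.77-fold (adjusted p = 6.3e-04). In the annotation hoxb3a lies over hoxb4a, hoxb5a and hoxb6a, and hoxb1b over hoxb5b and hoxb6b. Which transcript of these stretches a probe set reports is therefore uncertain.

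Known regulators of hox clusters were examined as the next layer of the pathway. Of 23 genes listed, among them the cdx and evx homeobox genes, the hindbrain factors egr2 and mafb, and Polycomb and Trithorax members, 19 were measured, 0 rose and 0 fell. Of these, 11 were at background on all arrays. mafbb was above background on all arrays, with 18.1, 27.5 and 18.1 under DMSO and 46.6, 44.2 and 36.0 under RA. Its duplicate mafba was not measured. Its groups did not overlap, but it did not pass (log2 fold change 1.01, adjusted p = 0.218). hnf1bb, upstream of hindbrain hox genes, was at background, with every RA pool above every DMSO pool (adjusted p = 0.167). The signal gene fgf8a was also at background, with every RA pool under every DMSO pool (adjusted p = 0.186). The Polycomb gene ezh2, which silences hox clusters, had 419 ± 65.7 under DMSO and 300 ± 38.8 under RA (SD, n = 3). Every RA pool of ezh2 was under every DMSO pool, but it did not pass (adjusted p = 0.565). suz12b, also a Polycomb gene, was separated the other way, with 86.5 ± 22.9 and 118 ± 5.15 (adjusted p = 0.663). The other measured Polycomb genes had overlapping groups and no call. Their log2 fold changes were −0.57 (eed), −0.33 (suz12a, at background), −0.16 (bmi1b), −0.10 (rnf2) and 0.19 (bmi1a). That of suz12a does not size a change. In the whole list 3 genes were separated upward and 3 downward. Over all probe sets 6.98% were separated upward, and the downward share was not counted.

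Markers of tissues that normally express hox genes and could adhere to dissected eyes were also read. In the hindbrain and spinal cord list, 3 of 9 genes were measured, egr2b and lhx5 were at background, and the summed signal was 54.9 to 68.8 under DMSO and 67.6 to 81.8 under RA. Most of this sum came from olig2 (55.1 ± 6.59 and 61.8 ± 7.42, SD, n = 3, adjusted p = 0.901). All 6 pectoral fin and lateral mesoderm markers were measured, with tbx5a, and2 and hand2 at background and sums of 73.7 to 88.8 and 85.9 to 88.2. All 6 pharyngeal arch crest markers were measured, with hand2 and sox9a at background and sums of 80.4 to 94.7 and 81.9 to 114. None of the genes in these lists passed by limma. hand2 was 1.59, 1.62 and 2.99 under DMSO and 5.23, 6.94 and 9.21 under RA (adjusted p = 0.128), and lhx5 also had every RA pool above every DMSO pool (adjusted p = 0.146). The fin marker and1, above background on all arrays, was separated as well, at 38.7, 41.0 and 33.5 under DMSO and 58.2, 52.3 and 51.1 under RA (adjusted p = 0.434). fgf24 of the same list was separated the other way, with 9.27, 9.57 and 15.4 under DMSO and 3.40, 6.14 and 8.81 under RA (adjusted p = 0.568). The other fin and arch markers had overlapping groups. Log2 fold changes in the fin list were −0.79 (and2), −0.45 (tbx5a) and −0.39 (fgf10a). In the arch list they were −0.72 (dlx2a), −0.33 (sox9a), 0.25 (dlx3b), 0.26 (dlx4b) and 0.64 (edn1). The values of and2, tbx5a and sox9a, at background in both groups, do not size a change. dlx2a was above background in 3 DMSO pools and 1 RA pool. The summed signal of the trunk muscle markers was 2016 to 2717 under DMSO and 1743 to 2175 under RA, most of it from actc1b (1841 ± 421 and 1361 ± 213, SD, n = 3). In the same list myog was separated the other way, at 9.17, 19.7 and 16.2 under DMSO and 33.1, 40.7 and 36.5 under RA (adjusted p = 0.208). mylpfa had log2 fold change 0.13 (adjusted p = 0.932). The study places myog in extraocular muscles, so this list cannot tell trunk muscle from muscle of the eye itself. The part of adhering tissue in the hox signals was not tested.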

How the data were processed

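RNA of 6 eye pools (80 ng each, amplified) was hybridised to Affymetrix Zebrafish Genome Arrays, 1 pool per array. The deposited values are signal intensities on a linear scale. Although the study's methods name RMA, these values are unlike RMA output, and how probes were summarized is not given in the sources used here. SAM, the test of the methods, was not used here. The study lists hoxb9a, hoxc5a and myog as upregulated, and these did not pass here by limma. Of 15617 probe sets, 62 controls were left out. R 4.3.3 and limma 3.58.1 (lmFit, eBayes, two-sided, Benjamini-Hochberg) tested 15555 log2 signals, without a block. An exact test of 3 against 3 cannot go below 0.1. The code was tested on simulated data. The methods state that clutches were split, and deviations of same-numbered arrays from their group means correlated (0.16, 0.42 and 0.28 for clutches 1, 3 and 4, over 9791 probe sets), so the clutch was used as a block in an alternative. A gene is represented by its probe set with the highest mean signal over all 6 arrays, those of RA included. Genes past 10% FDR, above background on an array or listed by the study are given with all values, and others were added to these after their values were seen (hoxa2b, hoxa5a, hoxa9b, hoxc3a and hoxd3a). The genes and lists were chosen with earlier results of these data known. Gene symbols came from the array's annotation, and all 31 matched RefSeq. The number of arrays and the low signals limit the precision.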

Additional observations from a re-analysis of the deposited data

How the results depend on the processing

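hoxa3a, hoxa4a, hoxb9a, hoxc1a, hoxc4a, hoxc5a, hoxc8a and hoxd4a kept a positive log2 fold change under every alternative that gave a value. hoxa4a, hoxc4a and hoxc8a gave none with signals set to the background as a floor, and hoxa3a, hoxa4a, hoxb9a, hoxc4a and hoxc8a did not enter the fit of probe sets above background on 3 arrays. Past 10% FDR were 131 probe sets, 5 genes of the set and, in groups 1 to 8, 5 genes. With array weights these were 593, 10 and 8 (2 in groups 9 to 13), and with a variance trend 274, 8 genes of the set, with 1 in groups 9 to 13. With log2(signal + 16) 232 probe sets passed, and hoxa4a and hoxc5a passed in place of hoxa3a and hoxc8a. With only probe sets above background on 3 arrays, 272 probe sets, 3 genes and 3 in groups 1 to 8 passed, but these genes (hoxc1a, hoxc5a and hoxd4a) met the filter through their RA arrays alone, so that it selects for the change. With quantile normalization 3 genes and 3 in groups 1 to 8 passed, and with the floor at background 0 and 0. With the clutch as a replicate block 45 probe sets, 2 genes and 2 in groups 1 to 8 passed, and among the genes of the set the block changed the calls of hoxa3a, hoxc1a and hoxd4a alone. Leaving out 1 array gave 52 to 117 probe sets, 2 to 5 genes, 2 to 4 in groups 1 to 8 and 0 to 1 in groups 9 to 13. Without clutch 1, 3 or 4, 54, 19 and 16 probe sets passed, and 1 gene each time, which was in groups 1 to 8. At 5% FDR 73 probe sets, 2 genes and 2 in groups 1 to 8 passed, and at 20% FDR 291 probe sets and 1 gene of groups 9 to 13. With the 95th percentile of the controls (5.19) as background, 7 genes were above it on every RA array and 5 on any DMSO array, against 3 and 0. The cause of these changes was not tested. The choice of hoxc8a's probe set by mean log2 signal was added after seeing the data. Signals under background limit what any of these counts can show.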

Other observations

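The genes that flank the hox clusters were measured as well. Of 70 protein-coding genes, 5 on each side of each cluster in the RefSeq order (GRCz12tu), 34 were measured, and 0 rose and 0 fell by limma at 10% FDR. Their median log2 fold change was −0.01, with a range of −1.08 to 1.43. Both ends of the range are genes at background on all arrays, so they do not size a change. snx10a had the most negative value, with 8.36 ± 1.21 in the DMSO pools and 3.97 ± 0.62 in the RA pools (SD, n = 3, adjusted p = 0.138), and prr15la the most positive (1.21 ± 0.71 and 2.91 ± 0.94, adjusted p = 0.536), both at background on all arrays. lnpa, beside the hoxda cluster, had 115 ± 8.63 and 103 ± 2.81 (adjusted p = 0.877). The retinoic acid receptor gene rarga, beside a hoxc cluster, had 50.7 ± 24.1 and 46.3 ± 6.99 (adjusted p = 0.999).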
